A study of Sus scrofa with 15 samples.

Results

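The proteasome genes of the pig were followed through oocyte maturation. They were chosen by name, as every gene of the pig gene table whose symbol starts with PSMA, PSMB, PSMC, PSMD, PSME, PSMF or PSMG, which gave 46 of 22516 genes. PSMC3IP and PSME3IP1 meet this rule by spelling only, since neither encodes a proteasome subunit, and they are described last. PSMB5, PSMB6, PSMG2 and PSMG4 were not analysed here. GV oocytes, which still hold the germinal vesicle, came without culture from follicles of sow ovaries collected at an abattoir. The other oocytes were matured in vitro for 44 h inside their cumulus complexes, stripped of cumulus cells by hyaluronidase, and sorted into MII oocytes with a first polar body and damaged oocytes without one. A damaged oocyte is thus defined by a missing polar body alone. Each group had 5 libraries, made from the poly(A) RNA of pooled oocytes. Of the GV libraries 4 entered the tests, because GV replicate 3 had the fewest counts and was left out. MII and damaged libraries together are called MIX, as in the study.

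The proteasome is the large protease that degrades proteins marked with ubiquitin. Its barrel, the 20S core, is built from outer alpha rings and inner beta rings, and some beta subunits carry the proteolytic sites. The 19S regulatory particle caps the barrel. Its base holds a ring of ATPases that unfold the substrate, and its lid removes the ubiquitin chain. Other caps, the PSME activators, can replace the 19S particle. Proteasome activity is needed for the metaphase to anaphase transition of oocyte meiosis, when securin and cyclin B are degraded.

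The libraries held 6.40 to 23.6 M estimated counts. The deposited tables of genes and of transcripts name 7 of the 15 libraries differently, in all 3 groups, and the names of the transcript tables were used. Levels are counts brought to a common library total with TMM factors, written TMM-scaled CPM, and n is 4 for GV and 5 each for MII and damaged, with SD after ±. Of 8 oocyte marker genes, 7 had a value, and their sum ranged from 9136 to 10582 TMM-scaled CPM in GV and from 4413 to 6843 in MIX libraries. These genes differed, as ZP3 had a mean of 1829 in GV and 95.6 in MIX, and GDF9 2010 and 322. ZP4, NLRP5 and FIGLA also had lower means in MIX. ZP2 was at 2282 in GV and 2223 in MIX, and BMP15 at 1432 and 1295. Of 10 cumulus and granulosa cell markers, 8 had a value, and their sum lay between 9.69 and 14.7 in GV and between 16.9 and 26.7 in MIX. FST alone carried this difference, with a mean of 7.23 in GV and 21.1 in MIX, and each of the other 7 had a lower mean in MIX. The follicle-stimulating hormone receptor gene FSHR, which defines granulosa cells, was at 0.4501 ± 0.297 in GV and 0.173 ± 0.138 in MIX. The TMM factors lay between 1.35 and 1.73 for GV and between 0.794 and 0.922 for MIX. With library sizes in place of TMM, the median over the 13220 genes tested moved from -0.16 to -1.06, a shift of -0.89 on the log2 scale. On each scale the tests below compare a gene with 0 and not with this median. A gene called as lower with library sizes can thus have fallen less than the median gene.

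Between GV and MIX, proteasome genes changed in both directions. The alpha and beta subunits, the ATPases, the lid and the activators each held genes that rose and genes that fell. Of the 46 genes, 43 could be tested, 18 rose, 16 fell and 9 did not pass the test, which was limma-voom with an FDR, the Benjamini-Hochberg adjusted p, under 0.01. Of all 13220 genes tested, 30.4% rose and 37.2% fell by the same rule. The median log2 fold change of the tested proteasome genes was 0.067, against -0.16 over all genes. Without PSMC3IP and PSME3IP1, 41 were tested, 18 rose, 14 fell, and the median was 0.26. DEGs, which also had to change by more than 2 on the log2 scale, numbered 4 that rose and 8 that fell, against 4.27% and 16.7% of all genes, and 6 fell without PSMC3IP and PSME3IP1. In 16 genes every MIX library lay above every GV library and in 15 every MIX library lay below, and 12 tested genes overlapped. This separation was seen in 24.3% and 29.4% of all genes. With library sizes, 12 proteasome genes rose and 24 fell, and 12.1% of all genes rose and 60.5% fell. Over the 8 libraries that both tables name alike, where GV replicates 4 and 5 are the only GV libraries, 18 rose and 14 fell. TMM-scaled CPM are relative levels. In a pooled oocyte library primed on poly(A) tails, more or less RNA of a gene, a different part of intact oocytes, and longer or shorter tails cannot be told apart.

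**Figure D1:**
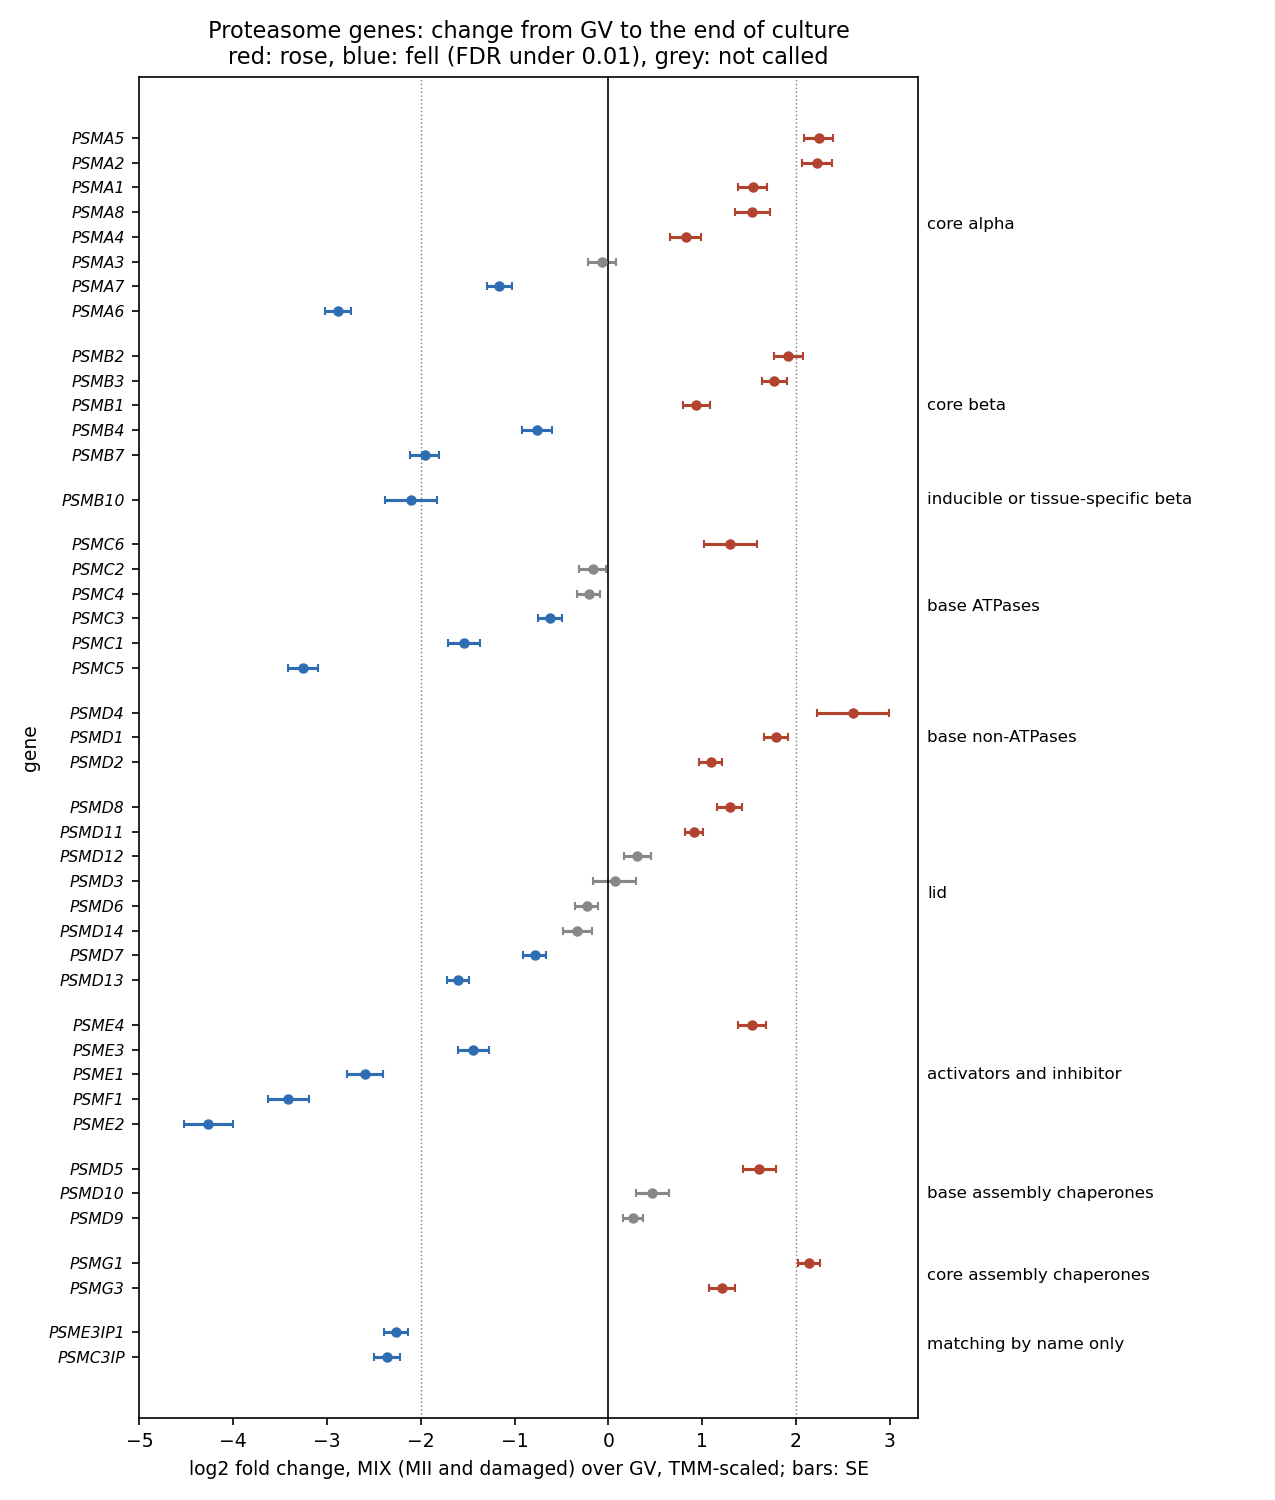
Log2 fold change between MIX and GV on the TMM scale (x axis; bars, SE) of the 43 proteasome genes tested, grouped by role (right), with genes that rose in red, genes that fell in blue and genes not called in grey. PSME2 lies farthest left at -4.26 and PSMD4 farthest right at 2.61, and PSMA4, which rose here, was at -0.074 with library sizes, where PSMD3, PSMD12, PSMD9 and PSMD10, in grey, were also under 0.

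Of the 8 alpha subunits of the 20S core, 5 rose, 2 fell and PSMA3 was not called. PSMA5 (ENSSSCG00000006830, chr4:110695429-110717308 in RefSeq on Sscrofa11.1) and PSMA2 (ENSSSCG00000039582, chr18:51909399-51919859) had the largest rises. PSMA5 stood at 177, 101, 127 and 75.4 TMM-scaled CPM in the GV libraries, at 556, 576, 485, 557 and 559 in the MII libraries and at 608, 540.0, 523, 547 and 465 in the damaged libraries. The lowest value after culture was far above the highest GV value. PSMA5 rose by 2.24 on the log2 scale (SE 0.15, adjusted p = 2.9e-11), a 4.73-fold rise. PSMA2 stood at 282, 173, 199.7 and 119.8 TMM-scaled CPM in the GV libraries, at 912, 902, 716, 926 and 852 in the MII libraries and at 1005, 951, 858, 888 and 685 in the damaged libraries. Here too the groups were apart, and PSMA2 rose by 2.23 on the log2 scale (SE 0.16, adjusted p = 6.2e-11). PSMA1, another ring subunit, went from 196 ± 68.9 TMM-scaled CPM in GV to 543 ± 42.2 in MII and 546 ± 69.9 in damaged libraries and rose by 1.54 on the log2 scale (SE 0.15, adjusted p = 1.1e-08). PSMA4 rose by 0.82 on the log2 scale (SE 0.16, adjusted p = 1.3e-04) although its GV and MIX libraries overlapped, and it was at -0.074 with library sizes. PSMA3 had a log2 fold change of -0.068 (SE 0.15, adjusted p = 0.69), and with library sizes it was called as lower at -0.96.

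In the same ring, PSMA6 went the other way. PSMA6 stood at 239, 166, 184 and 134 TMM-scaled CPM in the GV libraries, at 27.3, 19.97, 28.5, 22.0 and 26.1 in the MII libraries and at 25.0, 25.4, 20.7, 26.9 and 20.7 in the damaged libraries. All 10 MIX libraries were under every GV library, and PSMA6 (ENSSSCG00000054516, chr7:64578247-64603351) fell by 2.88 on the log2 scale (SE 0.14, adjusted p = 2.4e-13), a 7.36-fold fall. In TPM, which is scaled for transcript length and so allows subunits to be compared, PSMA6 was the second of the 8 alpha genes in GV at 517 ± 42.2 TPM, after PSMA3 at 659 ± 124, and the last in MIX at 34.8 ± 5.03 TPM. These ranks are of means, and in GV the TPM of PSMA6 overlapped those of PSMA3, PSMA4 and PSMA7 between libraries.

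PSMA7 and PSMA8 are alternative subunits for 1 position of the alpha ring. PSMA7 is the form found in most tissues, and PSMA8 is known from testis, where it forms the spermatoproteasome needed in male meiosis. PSMA7 stood at 132, 136, 141 and 150.03 TMM-scaled CPM in the GV libraries, at 49.9, 52.3, 57.7, 52.1 and 91.0 in the MII libraries and at 64.4, 58.5, 66.1, 60.9 and 80.8 in the damaged libraries. PSMA8 stood at 81.3, 46.5, 49.6 and 36.4 TMM-scaled CPM in the GV libraries, at 132, 129, 183, 144 and 167 in the MII libraries and at 166, 155, 205, 112 and 109 in the damaged libraries. PSMA7 was lower and PSMA8 higher in every library after culture. PSMA7 fell by 1.16 on the log2 scale (SE 0.14, adjusted p = 1.3e-07), and PSMA8 rose by 1.53 on the log2 scale (SE 0.19, adjusted p = 2.1e-07). The share of PSMA8 in the summed TPM of both genes does not depend on the scaling between libraries. It was 25.2, 15.7, 16.1 and 11.7% in the GV libraries, 59.0, 57.4, 63.4, 60.1 and 50.02% in the MII libraries and 58.5, 59.1, 62.9, 50.2 and 42.3% in the damaged libraries. The mean share was 17.2 ± 5.69% in GV, 58.0 ± 4.98% in MII and 54.6 ± 8.28% in damaged libraries, with no overlap between GV and the others. This share was computed after the values of both genes were seen and was not tested. PSMA7 overlaps LSM14B in RefSeq, and reads were counted without strand.

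**Figure D2:**
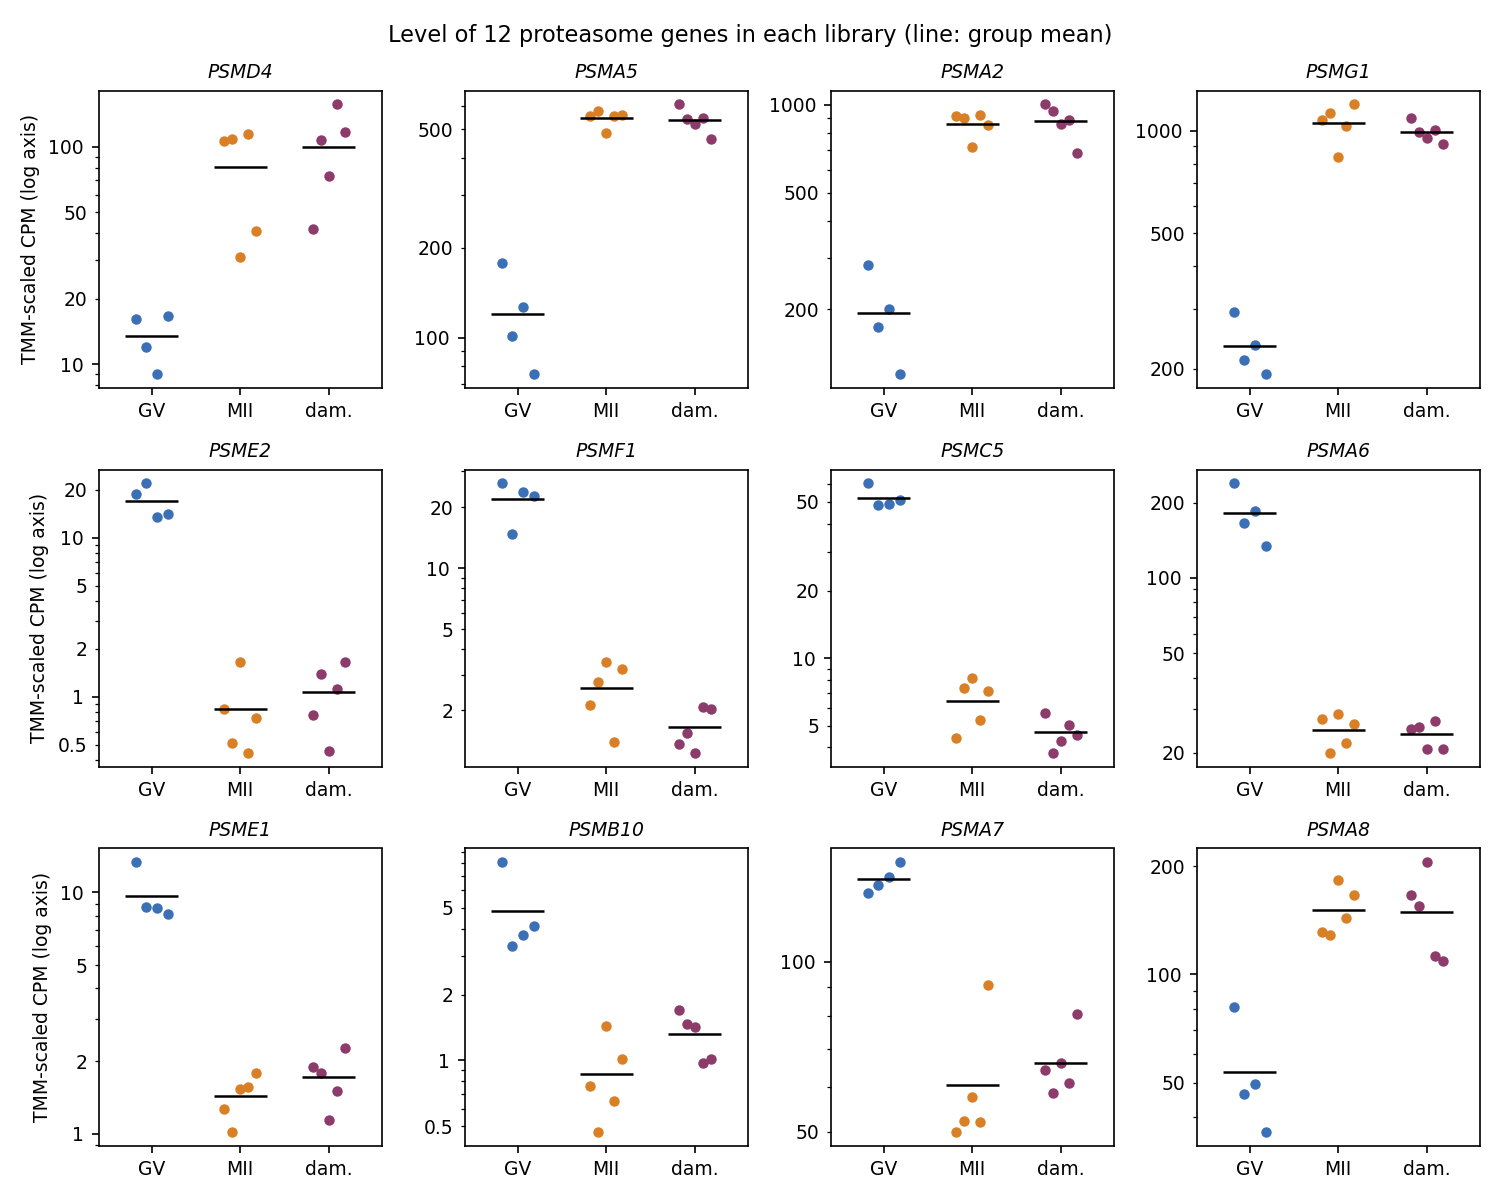
TMM-scaled CPM (y axis, log) of 12 proteasome genes in each of 4 GV, 5 MII and 5 damaged (dam.) libraries, with a line at the group mean. In each panel the GV libraries lie apart from all 10 others, above them for PSME2, PSMF1, PSMC5, PSMA6, PSME1, PSMB10 and PSMA7 and below them for the rest.

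Among the constitutive beta subunits, PSMB1, PSMB2 and PSMB3 rose and PSMB4 and PSMB7 fell. PSMB2 had the largest rise, from 174 ± 54.2 TMM-scaled CPM in GV to 643 ± 86.1 in MII and 636 ± 91.1 in damaged libraries, and rose by 1.92 on the log2 scale (SE 0.15, adjusted p = 3.3e-10). PSMB3 rose by 1.77 on the log2 scale (SE 0.13, adjusted p = 1.5e-10). PSMB1, the core subunit with the highest TPM in all 14 libraries tested, rose by 0.94 on the log2 scale (SE 0.15, adjusted p = 6.0e-06) and was at 0.042 and not called with library sizes. PSMB7 carries the trypsin-like site of the proteasome. PSMB7 stood at 171, 122, 127 and 97.9 TMM-scaled CPM in the GV libraries, at 26.9, 32.1, 26.4, 32.8 and 43.0 in the MII libraries and at 31.4, 38.0, 24.3, 42.2 and 34.3 in the damaged libraries. It was lower in all 10 MIX libraries than in any GV library and fell by 1.96 on the log2 scale (SE 0.15, adjusted p = 3.3e-10), just under the limit of 2 for a DEG, which it passed with library sizes. PSMB4 fell by 0.76 on the log2 scale (SE 0.17, adjusted p = 3.0e-04) with overlapping libraries, and it was not called over the 8 libraries named alike (log2 fold change -0.56).

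The inducible beta subunits PSMB8, PSMB9 and PSMB10 replace the proteolytic subunits in the immunoproteasome of immune cells and respond to interferon. Of these and the thymus-specific PSMB11, only PSMB10 was high enough to test. PSMB11 was listed at 0 in the columns of the gene table used here. PSMB8 had 3.01 estimated counts over the 4 GV libraries and 0 over the 10 MIX libraries, which allows up to 0.0173 CPM (3 counts of their summed total, counting error only). PSMB9 had at most 10.7 counts in any GV library and at most 7.99 in any MIX library. PSMB8 (chr7:25058456-25061666) and PSMB9 (chr7:25072133-25077508) are neighbours 10467 bases apart. PSMB10 is the inducible counterpart of PSMB7. PSMB10 stood at 8.09, 3.33, 3.76 and 4.11 TMM-scaled CPM in the GV libraries, at 0.759, 0.469, 1.43, 0.653 and 1.01 in the MII libraries and at 1.71, 1.47, 1.42, 0.973 and 1.01 in the damaged libraries. GV replicate 1 was the highest, and all MIX libraries were below all GV libraries. PSMB10 fell by 2.11 on the log2 scale (SE 0.28, adjusted p = 6.9e-07), or by 1.82 without GV replicate 1, under the limit for a DEG. Its share of the summed TPM of PSMB10 and PSMB7 was 2.12 to 3.62% in GV and 1.15 to 4.43% among the MIX libraries, which overlap. Of 4 blood and immune markers, 3 had a value, and their sum was 4.45 to 8.86 TMM-scaled CPM in GV, 2.33 to 3.08 in MII and 2.15 to 3.60 in damaged libraries. The sum was mostly CD14, with a mean of 6.15 in GV and 2.14 in MIX, while PTPRC, the general leukocyte marker, was at 0.151 in GV and 0.609 in MIX and HBB at 0.0128 in GV and 0.0856 in MIX. CD74 was listed at 0, and the part of such cells in the fall of PSMB10 was not tested.

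The opposite changes left the 20S subunits further apart in level than before. Over the 12 core genes other than PSMA8 and the inducible ones, the SD of log2 TPM within a library was 0.878 to 0.961 in GV, 1.52 to 1.73 in MII and 1.58 to 1.69 in damaged libraries. The highest of the 12 was 5.85 to 8.13 times the lowest in GV, and after culture it was 20.2 to 27.5 times the lowest. PSMB3 was lowest in each GV library, and PSMA6 or PSMB4 in each MIX library. The summed TPM of the 12 genes overlapped, at 3799 to 4978 in GV and 3535 to 4118 in MIX. For the 17 genes of the 19S base and lid, the same SD was 1.18 to 1.45 in GV and 1.34 to 1.63 in MIX, which overlap, and their summed TPM was 1665 to 1757 against 893 to 1260.1, which do not. PSMA4, which rose in TMM-scaled CPM, was at 386 ± 86.0 TPM in GV and 331 ± 34.4 TPM in MIX. TPM carries no TMM factor, so a sum over genes also falls where other RNAs take a larger share of the library. These spreads are descriptions with no test.

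**Figure D3:**
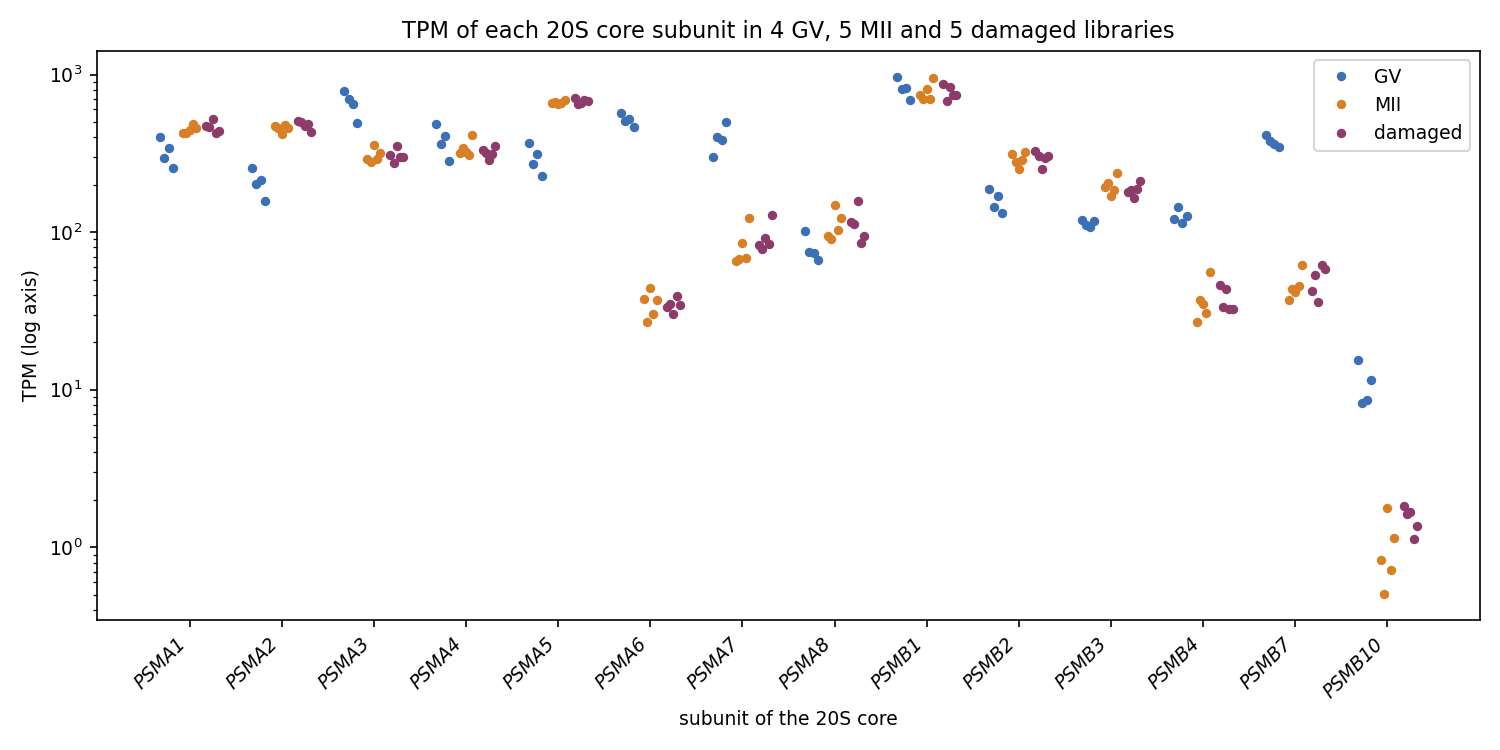
TPM (y axis, log) of 14 subunits of the 20S core in 4 GV (blue), 5 MII (orange) and 5 damaged (purple) libraries. All MII and damaged points lie below all GV points for PSMA3, PSMA6, PSMA7, PSMB4, PSMB7 and PSMB10 and above them for PSMA1, PSMA2, PSMA5, PSMB2 and PSMB3, and the MII and damaged points of each gene lie together.

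In the 19S base, of the 6 ATPases, PSMC6 rose, PSMC1, PSMC3 and PSMC5 fell, and PSMC2 and PSMC4 were not called, with a median log2 fold change of -0.42. PSMC5 stood at 60.7, 48.2, 49.1 and 50.8 TMM-scaled CPM in the GV libraries, at 4.40, 7.35, 8.14, 5.29 and 7.18 in the MII libraries and at 5.71, 3.77, 4.26, 5.06 and 4.57 in the damaged libraries. No GV value came near the MIX values. PSMC5 (ENSSSCG00000017287, chr12:15101946-15106326) fell by 3.26 on the log2 scale (SE 0.16, adjusted p = 2.7e-13), a 9.56-fold fall, and it overlaps FTSJ3 in RefSeq. PSMC1 fell by 1.54 on the log2 scale (SE 0.17, adjusted p = 7.9e-08) and PSMC3 fell by 0.62 on the log2 scale (SE 0.13, adjusted p = 2.2e-04), which was not called over the 8 libraries named alike (log2 fold change -0.51). PSMC6 was the scarcest ATPase in GV at 8.40 ± 1.97 TPM and rose by 1.30 on the log2 scale (SE 0.28, adjusted p = 2.8e-04), with overlapping libraries, and it was not called with library sizes (log2 fold change 0.39). In MIX libraries PSMC5 had the lowest mean of the ATPases at 5.29 ± 1.49 TPM, overlapping PSMC6, and PSMC2 the highest at 46.2 ± 8.75 TPM, overlapping PSMC3. In GV, PSMC5, PSMC2 and PSMC3 overlapped, with PSMC5 at 100.4 ± 11.2, PSMC2 at 104 ± 6.48 and PSMC3 at 106 ± 8.79 TPM, and PSMC1 was above them at 158 ± 23.6 TPM.

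All 3 non-ATPase genes of the base with a PSM symbol rose, where 30.4% of all genes rose. ADRM1, a ubiquitin receptor subunit without a PSM symbol, fell and is given with the other pathway genes. PSMD1 and PSMD2 are the large scaffolds that dock ubiquitin receptors and shuttles, and PSMD4 is itself a receptor for ubiquitin chains. PSMD4 stood at 16.1, 11.98, 8.98 and 16.7 TMM-scaled CPM in the GV libraries, at 106, 108, 31.1, 114 and 40.9 in the MII libraries and at 41.7, 107, 73.2, 157 and 117 in the damaged libraries. The MIX libraries were widely spread, with MII replicates 3 and 5 and damaged replicate 1 low, yet each was above the highest GV library. PSMD4 (ENSSSCG00000006628, chr4:97994060-98004727) rose by 2.61 on the log2 scale (SE 0.38, adjusted p = 3.3e-06), the largest rise and the largest SE of the proteasome genes tested, and leaving out any 1 library gave 2.43 to 2.75. PSMD1 went from 111 ± 2.36 TMM-scaled CPM in GV to 391 ± 26.7 in MII and 379 ± 82.2 in damaged libraries and rose by 1.79 on the log2 scale (SE 0.13, adjusted p = 6.1e-11). PSMD2 rose by 1.09 on the log2 scale (SE 0.12, adjusted p = 8.1e-08) and was at 0.20 and not called with library sizes.

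The lid held the most genes without a call. PSMD8 and PSMD11 rose, PSMD7 and PSMD13 fell, and PSMD3, PSMD6, PSMD12 and PSMD14 did not pass the test, with a median log2 fold change of -0.082. PSMD8, the 19S subunit with the highest TPM in all 14 libraries tested, went from 138 ± 36.7 TMM-scaled CPM in GV to 321 ± 32.6 in MII and 342 ± 41.9 in damaged libraries and rose by 1.29 on the log2 scale (SE 0.13, adjusted p = 2.2e-08). PSMD11 rose by 0.92 on the log2 scale (SE 0.096, adjusted p = 2.6e-08) and was at 0.022 with library sizes. PSMD13 went from 63.8 ± 8.62 TMM-scaled CPM in GV to 22.0 ± 2.53 in MII and 19.7 ± 1.30 in damaged libraries and fell by 1.61 on the log2 scale (SE 0.12, adjusted p = 8.5e-11). PSMD7, the partner of the deubiquitinase subunit, fell by 0.78 on the log2 scale (SE 0.12, adjusted p = 7.3e-06). PSMD14, which is that deubiquitinase, had a log2 fold change of -0.33 (SE 0.15, adjusted p = 0.054), and it was -0.54 and called without GV replicate 5. PSMD12 was at 0.31 (SE 0.14, adjusted p = 0.061) and was called without GV replicate 1, at 0.47, while with library sizes it was at -0.59. PSMD6 was at -0.23 (SE 0.12, adjusted p = 0.098) and PSMD3 at 0.067 (SE 0.23, adjusted p = 0.8).

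The activators and the inhibitor held the largest falls. PSME1 and PSME2 form the PA28 ring that opens the barrel and is induced by interferon, PSME3 forms a nuclear ring of the same kind, PSME4 is the large activator PA200, and PSMF1 is the inhibitor PI31. PSME2 stood at 18.8, 22.1, 13.5 and 14.2 TMM-scaled CPM in the GV libraries, at 0.834, 0.511, 1.65, 0.441 and 0.733 in the MII libraries and at 0.765, 1.39, 0.454, 1.12 and 1.65 in the damaged libraries. The lowest GV value was several times the highest MIX value. PSME2 (ENSSSCG00000002004, chr7:75154570-75157871) fell by 4.26 on the log2 scale (SE 0.26, adjusted p = 8.2e-12), a 19.2-fold fall, from 40.3 ± 10.2 TPM to 1.13 ± 0.635 TPM. PSME1 stood at 13.4, 8.67, 8.61 and 8.13 TMM-scaled CPM in the GV libraries, at 1.26, 1.01, 1.53, 1.57 and 1.78 in the MII libraries and at 1.89, 1.78, 1.13, 1.498 and 2.27 in the damaged libraries. PSME1 (ENSSSCG00000002006, chr7:75161830-75164531), whose gene lies 3959 bases from PSME2 and overlaps EMC9, fell by 2.59 on the log2 scale (SE 0.19, adjusted p = 1.5e-10). GV replicate 1 was again the highest.

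PSMF1 stood at 26.3, 14.8, 23.7 and 22.6 TMM-scaled CPM in the GV libraries, at 2.14, 2.77, 3.44, 1.39 and 3.21 in the MII libraries and at 1.37, 1.54, 1.23, 2.08 and 2.02 in the damaged libraries. PSMF1 (ENSSSCG00000038854, chr17:34118324-34164723) fell by 3.41 on the log2 scale (SE 0.22, adjusted p = 1.5e-11), a 10.6-fold fall with no overlap. PSME3 stood at 143, 86.7, 103 and 85.6 TMM-scaled CPM in GV, at 28.8, 35.1, 48.9, 31.8 and 42.7 in MII and at 29.4, 29.8, 39.5, 45.9 and 51.8 in damaged libraries, and it fell by 1.44 on the log2 scale (SE 0.17, adjusted p = 1.1e-07). PSME4 was the gene of this group that rose. Its levels were 20.1, 23.1, 20.3 and 26.7 in GV, 76.0, 83.4, 57.9, 73.1 and 48.6 in MII and 57.3, 77.0, 56.4, 61.0 and 69.5 in damaged libraries, and it rose by 1.53 on the log2 scale (SE 0.15, adjusted p = 7.4e-09). In TPM, PSME3 was the highest activator in GV at 115 ± 12.1, against 7.83 ± 2.28 for PSME4. In MIX they were at 21.5 ± 6.36 and 11.03 ± 1.84, and both were above PSME1 and PSME2. Of the immune markers given above, CD14 was higher in GV and PTPRC was not, and their part in the falls of PSME1 and PSME2 was not tested.

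Of the tested assembly chaperones with a PSM symbol, PSMG1, PSMG3 and PSMD5 rose and none fell. By the same rule 30.4% of all genes rose and 37.2% fell. The chaperone gene POMP, outside this set, fell and is given with the other pathway genes. PSMG1 pairs with PSMG2 to help build the alpha ring. PSMG1 stood at 295, 213, 235 and 193 TMM-scaled CPM in the GV libraries, at 1072, 1123, 838, 1028 and 1196 in the MII libraries and at 1086, 991, 951, 1001 and 912 in the damaged libraries. Its groups were apart, and PSMG1 (ENSSSCG00000062206, chr13:202762509-202775601) rose by 2.14 on the log2 scale (SE 0.12, adjusted p = 1.4e-12), from 594 ± 18.6 TPM to 1289 ± 94.5 TPM. PSMG3 rose by 1.21 on the log2 scale (SE 0.14, adjusted p = 1.5e-07) and was at 0.31 and not called with library sizes. PSMD5, which helps to assemble the ATPase ring with PSMD9 and PSMD10, went from 76.5 ± 12.3 TMM-scaled CPM in GV to 236 ± 49.2 in MII and 238 ± 79.7 in damaged libraries and rose by 1.61 on the log2 scale (SE 0.18, adjusted p = 5.0e-08). PSMD10 was at 0.47 (SE 0.18, adjusted p = 0.021) and was called, at 0.59, without GV replicate 1, and at 0.55 without damaged replicate 5. PSMD9 was at 0.26 (SE 0.11, adjusted p = 0.034). With library sizes PSMD10 was at -0.42 and not called, and PSMD9 was at -0.64 and called as lower.

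PSMC3IP, a meiotic recombination cofactor, and PSME3IP1, an interactor of PSME3, both fell. PSMC3IP went from 55.5 ± 9.48 TMM-scaled CPM in GV to 10.3 ± 2.15 in MII and 11.4 ± 1.17 in damaged libraries and fell by 2.36 on the log2 scale (SE 0.14, adjusted p = 5.4e-12). PSME3IP1 went from 228 ± 13.1 TMM-scaled CPM in GV to 46.4 ± 7.05 in MII and 49.6 ± 10.02 in damaged libraries and fell by 2.27 on the log2 scale (SE 0.12, adjusted p = 1.3e-12). In both, all MIX libraries were below all GV libraries.

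The changes of MII and damaged oocytes against GV are given side by side, since both use the same GV libraries. In MII against GV 18 proteasome genes rose and 16 fell, with 28.2% and 34.2% of all genes, and in damaged against GV 18 rose and 16 fell, with 28% and 33.4%. DEGs that rose numbered 4 in each, against 4.51% of all genes in MII and 4.08% in damaged oocytes. DEGs that fell numbered 8 in MII, against 17% of all genes, and 7 in damaged oocytes, against 16.4%. Without PSMC3IP and PSME3IP1, 14 genes fell in each comparison, and DEGs that fell numbered 6 in MII and 5 in damaged oocytes. The gene that made the difference was PSMB10, at -2.43 in MII and -1.79 in damaged oocytes. PSME2 was at -4.47 and -4.06, PSMF1 at -3.12 and -3.70, PSMA6 at -2.85 and -2.91, and PSMA5 at 2.26 and 2.23.

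Compared directly, MII and damaged oocytes gave 0 called proteasome genes of 43 in limma-voom, edgeR and DESeq2, where 0% of all 13220 genes were called by limma-voom. At an unadjusted p under 0.05 stood 2 of the 43, PSMC5 and PSMD3, against 1.48% of all genes. PSMC5 was 0.45 higher on the log2 scale in MII (SE 0.20, limma-voom adjusted p = 1.00), with the library values given above overlapping. PSMD3 stood at 8.49, 11.6, 14.002 and 22.7 TMM-scaled CPM in GV, at 11.4, 11.9, 11.8, 10.2 and 13.9 in MII and at 17.4, 10.7, 18.3, 17.2 and 22.1 in damaged libraries. Its log2 fold change of MII against damaged was -0.51 (SE 0.24, limma-voom adjusted p = 1.00), and the groups overlapped. Over the 43 genes the log2 fold changes ran from -0.64 for PSMB10 to 0.58 for PSMF1, with SEs of 0.39 and 0.32. Over the 3 MII and 3 damaged libraries that both deposited tables name alike, limma-voom also called 0. Differences of this size were not detectable here, which does not show that the groups are alike.

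Several proteasome genes also changed which annotated transcript they used. Transcript use was tested with limma's diffSplice, which compares a transcript's log2 fold change in counts with that of its gene's other transcripts. The share of each transcript in its gene's TPM is printed beside it, and the adjusted p does not test this share. A transcript was called at an FDR under 0.01 with a change of the share over 10 percentage points. Of 25 proteasome genes with more than 1 transcript tested, 12 had a called transcript, or 48%, against 43% of all genes tested, and 24 of 65 transcripts were called, against 30% of all. These 12 were PSMA4, PSMC2, PSMC3, PSMD1, PSMD2, PSMD5, PSMD9, PSMD10, PSMD12, PSMD13, PSME2 and PSME3IP1. PSME3IP1, which encodes no proteasome subunit, is counted among both the genes and the transcripts. Shares of transcripts with much the same sequence are estimates, and no read shows them directly.

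PSMD1 had the lowest p. Its transcript ENSSSCT00000017720.5 (4013 bases) held 66.1, 75.8, 62.7 and 65.5% of the gene's TPM in the GV libraries, 5.84, 5.43, 7.82, 6.55 and 8.09% in MII and 10.1, 7.56, 9.52, 5.26 and 6.56% in damaged libraries. The shorter ENSSSCT00000073821.2 (2889 bases) held the rest, so PSMD1 passed from mostly the longer to nearly all the shorter transcript (change -60.2 points for the longer, adjusted p = 1.5e-16). PSMD1 overlaps HTR2B in RefSeq. PSMD12 changed in the other direction of length. ENSSSCT00000018803.5 (2434 bases) held 59.0, 56.5, 61.2 and 59.6% in the GV libraries. After culture it held 18.2% in MII replicate 3 and 28.2% in damaged replicate 3, at most 2.66% in any other MII library and 0 or near 0 in any other damaged library, and the longer ENSSSCT00000059396.3 (3076 bases) took its place (adjusted p = 2.6e-08). PSMD12 as a gene was not called. In PSMD2, ENSSSCT00000024405.4 (2784 bases) held 58.5 ± 3.59% of the gene's TPM in GV libraries and 16.9 ± 10.9% in MIX libraries (adjusted p = 0.0023). In PSMD10, ENSSSCT00000051316.3 (1319 bases) held 25.0 ± 16.1% of the gene's TPM in GV libraries and 0.251 ± 0.751% in MIX libraries (adjusted p = 2.3e-06), although the GV libraries ranged from 8.75 to 41.8%.

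The other 8 genes are given by 1 called transcript each. For PSMD9, ENSSSCT00000051138.3 (2451 bases) held 63.2 ± 12.5% of the gene's TPM in GV libraries and 84.8 ± 3.74% in MIX libraries (adjusted p = 1.8e-06). For PSMD13, ENSSSCT00000049587.3 (1556 bases) held 59.9 ± 10.2% of the gene's TPM in GV libraries and 26.4 ± 8.58% in MIX libraries (adjusted p = 0.0029). For PSMA4, ENSSSCT00000099454.1 (800 bases) held 59.2 ± 2.17% of the gene's TPM in GV libraries and 39.2 ± 1.81% in MIX libraries (adjusted p = 0.0028). For PSMC3, ENSSSCT00000070776.1 (2299 bases) held 48.8 ± 12.8% of the gene's TPM in GV libraries and 72.1 ± 5.04% in MIX libraries (adjusted p = 2.2e-07). For PSMC2, ENSSSCT00000043159.3 (2335 bases) held 47.3 ± 20.7% of the gene's TPM in GV libraries and 16.1 ± 10.9% in MIX libraries (adjusted p = 0.0032), and its GV and MIX libraries overlapped. For PSMD5, ENSSSCT00000096470.1 (2695 bases) held 30.3 ± 19.5% of the gene's TPM in GV libraries and 0.238 ± 0.708% in MIX libraries (adjusted p = 1.5e-04), while ENSSSCT00000072176.2 (2796 bases) ranged from near 0 to 77.7% among the GV libraries. For PSME3IP1, ENSSSCT00000061444.3 (1210 bases) held 89.2 ± 1.56% of the gene's TPM in GV libraries and 58.9 ± 3.24% in MIX libraries (adjusted p = 8.0e-12). For PSME2, ENSSSCT00000090209.2 (733 bases) held 85.9 ± 4.48% of the gene's TPM in GV libraries and 17.6 ± 25.1% in MIX libraries (adjusted p = 1.4e-06), but this transcript had a mean of only 1.65 estimated counts in MIX libraries. Changes of PSMB2 and PSMD11 passed the FDR but stayed under 10 points.

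**Figure D4:**
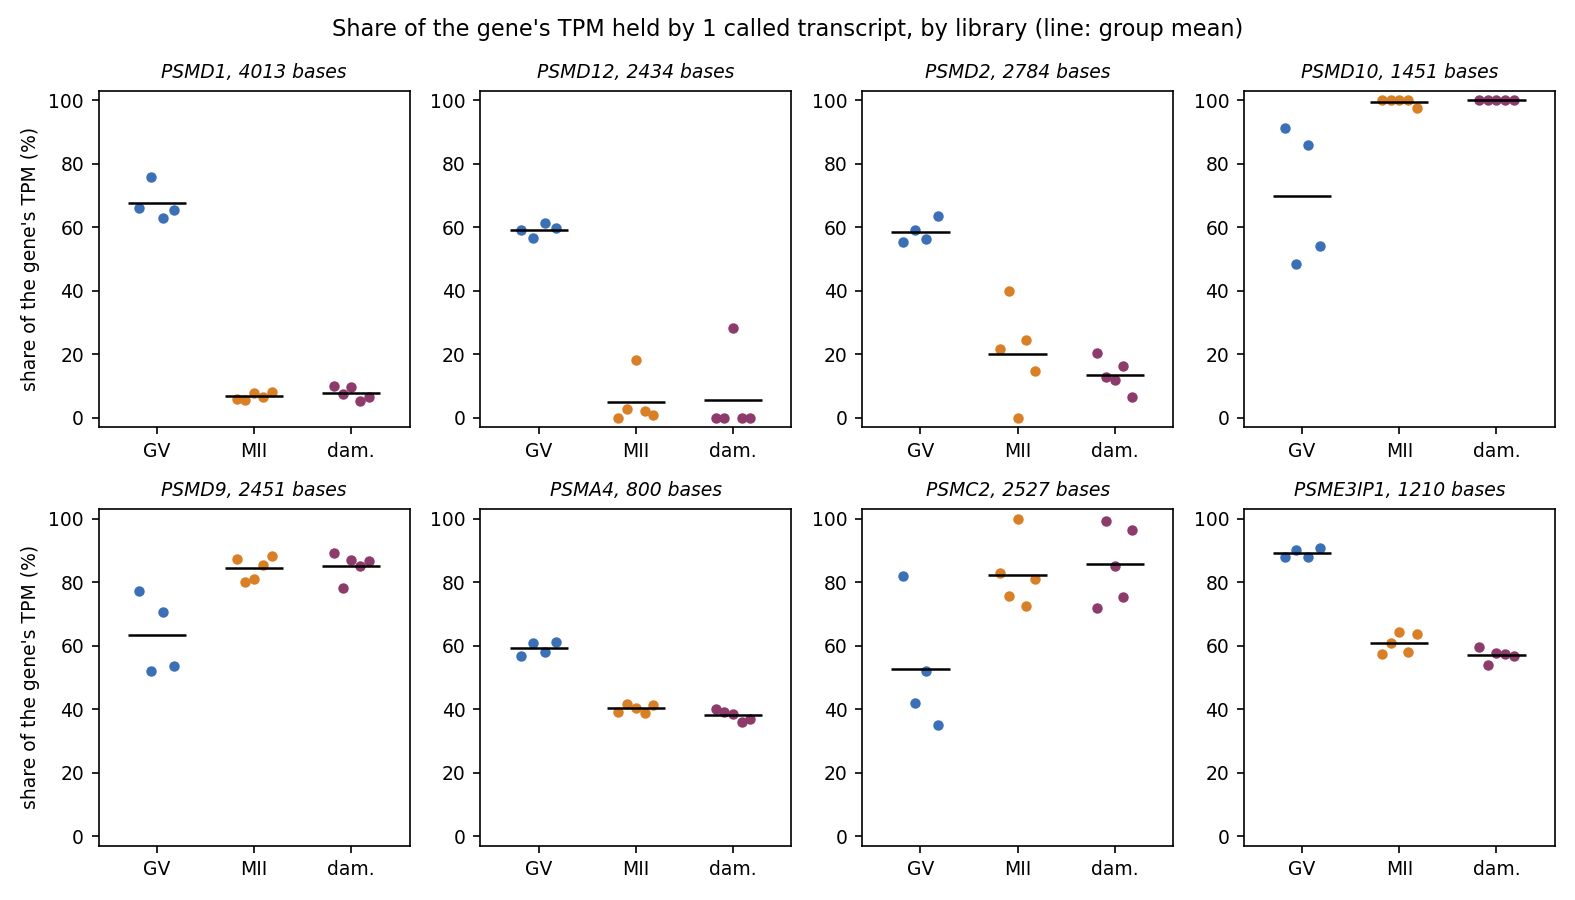
Share (%) of the gene's TPM held by 1 called transcript, the called one with the higher GV share, in each GV, MII and damaged (dam.) library for 8 genes, with its annotated length above each panel and a line at the group mean. PSMD1 drops from 67.5% in GV to 7.27% in MIX and PSMD12 from 59.1% to 5.21%, while the PSMC2 groups overlap.

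Other genes of the ubiquitin-proteasome pathway, a list of 32 symbols of which 30 had a row and 29 could be tested, were mixed too. Of the 29, 10 rose, 9 fell and 10 were not called, where 30.4% of all genes rose and 37.2% fell, with a median log2 fold change of 0.24. With library sizes 6 rose and 15 fell, where 12.1% of all genes rose and 60.5% fell, and the calls of UBQLN2, UFD1, UBA6 and TXNL1 as higher were lost. SEM1 and DDI2 were not analysed here, and UBE3C was too low to test. The assembly factors parted. The gene of the beta ring chaperone, POMP went from 289.6 ± 95.7 to 101 ± 17.5 TMM-scaled CPM (log2 fold change -1.47, adjusted p = 1.2e-07). The gene of a factor for nuclear import of proteasomes, AKIRIN2 went from 2174 ± 554 to 6460.4 ± 859 TMM-scaled CPM (log2 fold change 1.59, adjusted p = 1.4e-09). The ubiquitin receptor gene ADRM1 went from 17.5 ± 11.6 to 3.77 ± 1.56 TMM-scaled CPM (log2 fold change -2.01, adjusted p = 7.4e-05). The polyubiquitin gene UBB went from 4245 ± 1025 to 13427 ± 1236 TMM-scaled CPM (log2 fold change 1.69, adjusted p = 5.1e-11). Of the ubiquitin-activating enzymes, UBA6 went from 22.3 ± 3.85 to 43.3 ± 4.70 TMM-scaled CPM (log2 fold change 0.97, adjusted p = 9.4e-07), and UBA1 had a log2 fold change of 0.28 (adjusted p = 0.094).

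Among transcription regulators of proteasome genes, the gene of the deglycosylase that activates NFE2L1, NGLY1 went from 421 ± 32.6 to 2041 ± 260.2 TMM-scaled CPM (log2 fold change 2.27, adjusted p = 3.3e-13). NFE2L2 went from 97.7 ± 10.99 to 269 ± 32.1 TMM-scaled CPM (log2 fold change 1.46, adjusted p = 3.1e-10), and NFE2L1 itself was at 0.054 (adjusted p = 0.79). USP14, a deubiquitinase bound to the base, went from 171 ± 18.4 to 482 ± 47.9 TMM-scaled CPM (log2 fold change 1.497, adjusted p = 7.1e-11). Of the segregase VCP and its cofactors, NSFL1C went from 50.1 ± 7.44 to 4.06 ± 1.36 TMM-scaled CPM (log2 fold change -3.67, adjusted p = 7.1e-13) and NPLOC4 went from 11.8 ± 4.57 to 0.931 ± 0.284 TMM-scaled CPM (log2 fold change -3.59, adjusted p = 4.2e-10), while UFD1 went from 23.0 ± 1.68 to 51.4 ± 3.54 TMM-scaled CPM (log2 fold change 1.16, adjusted p = 3.7e-09) and FAF2 went from 52.0 ± 9.53 to 154 ± 13.6 TMM-scaled CPM (log2 fold change 1.58, adjusted p = 1.1e-10). FAF1 had a log2 fold change of -1.86 (adjusted p = 2.7e-09), and VCP was not called, at 0.57 (adjusted p = 0.022). Of the shuttle receptors, UBQLN2 rose by 1.29 on the log2 scale, RAD23B fell by 1.04, and UBQLN4 went from 2.04 ± 0.107 to 0.0977 ± 0.0922 TMM-scaled CPM (log2 fold change -4.29, adjusted p = 1.8e-09). Among the regulators, PAAF1 fell by 3.12 and ZFAND2B fell by 3.16, and TXNL1 rose by 0.61 but was at -0.29 with library sizes.

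**Figure D5:**
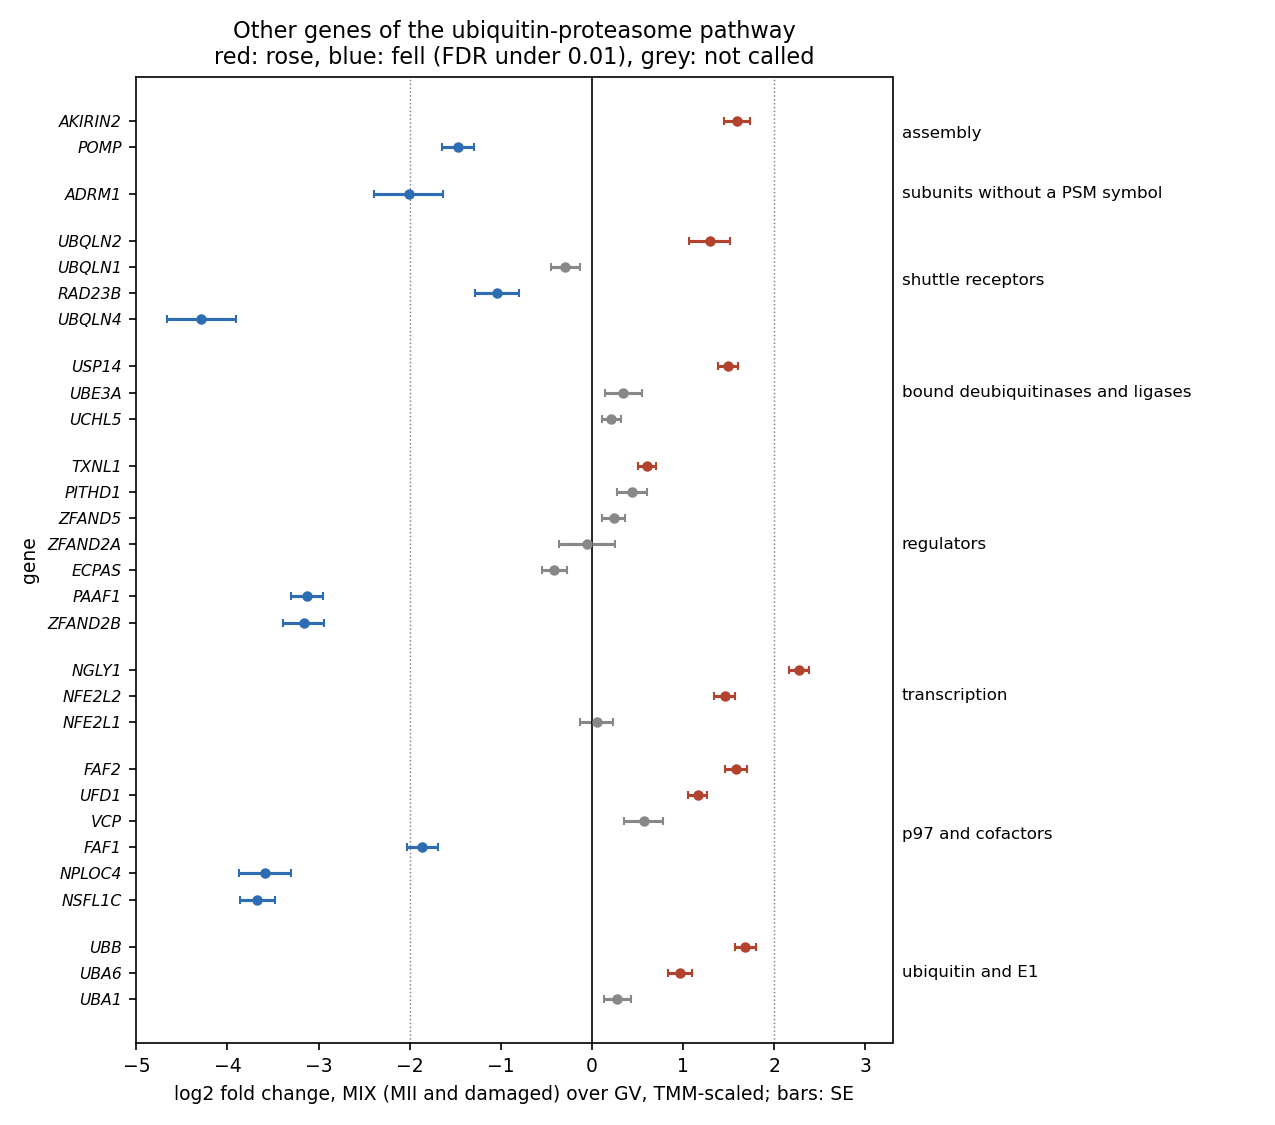
Log2 fold change between MIX and GV on the TMM scale (x axis; bars, SE) of the 29 other pathway genes tested, grouped by role, with genes that rose in red, genes that fell in blue and genes not called in grey. UBQLN4 lies farthest left at -4.29 and NGLY1 farthest right at 2.27, and TXNL1 is at -0.29 with library sizes.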

How the data were processed

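Pig oocytes of the groups GV, MII and damaged were measured by RNA-seq in 15 libraries, sequenced as single-end reads without strand after cDNA synthesis with a SMART-Seq HT kit. Human libraries were not used. Adapters were removed by the authors with AfterQC, and they made estimated counts and TPM per transcript with Kallisto (version 0.43 in the submitters' processing notes) on the Sscrofa11.1 cDNA. The deposited table of estimated counts per gene was made by the authors with tximport (lengthScaledTPM) and was not normalized between libraries. Of its 15 columns, 8 matched in total the library they name, and 7 matched a differently labelled library and were left out. Genes were linked to transcripts by comparing transcript sums with those 8 columns, which placed 13639 of 13649 genes that reached 10 counts in 2 or more columns. The same formula then gave gene counts for every library from its transcript values. In the 8 columns that had linked the genes, they were within 0.00545% of deposited counts of at least 10. The other libraries had no such comparison. Groups are thus those of the labelled transcript tables, MII against damaged included, and which set of names is right was not settled. The gene table names 7 of these libraries otherwise, so all gene comparisons, but not transcript use, were also run on the other 8, an alternative chosen after seeing the data.

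Genes were filtered with filterByExpr (minimum count 10), scaled with TMM, since the study names no factor, and tested by limma-voom (limma 3.58.1, edgeR 4.0.16, R 4.3.3) on 14 libraries, MIX against GV in a fit of 2 groups and the other comparisons in a fit of 3. Fractional estimated counts were rounded for DESeq2 1.42.0 and edgeR's quasi-likelihood test, which were alternatives, as were library sizes, other filters, all 5 GV libraries, a replicate block, summed counts, library weights and leaving out each library. Transcript use was tested with diffSplice in place of DEXSeq. On simulated libraries each gene test recovered 200 of 200 changed genes. Recovery of differences as small as those between MII and damaged libraries was not tested, nor was recovery with the TMM factors seen here. Adjusted p-values are over all genes tested. The study describes its replicates as biologically independent collections of oocytes, and the labels do not tie a replicate number to a collection or an animal. To look for a library deposited more than once, replicates of a group were compared, and they differed by 20.3 to 281 times the sampling noise (mean chi-square per gene), which does not tell technical from biological replicates.

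Symbols came from a table of Ensembl gene IDs, and positions from RefSeq (Sscrofa11.1) for 45 of 46 genes. Reads shared by similar genes can be split between them by Kallisto, and how similar PSMA7 and PSMA8 are in sequence was not checked. The genes and lists were chosen with earlier results of these data known, and 2 genes of the pathway list are not reported here. Genes named with values were the DEGs, the highest and lowest fold change of each role group, the catalytic and inducible beta genes, PSMA7 and PSMA8, the activators and inhibitor, genes with an unadjusted p under 0.05 between MII and damaged, genes that could not be tested and called transcript changes; others are named where their group is described. Of 4 theca and stroma markers, 3 had a value, with a sum of 1.41 to 3.56 TMM-scaled CPM in GV and 0.717 to 6.90 in MIX libraries. Python 3.11.15 made the tables and figures.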

Additional observations from a re-analysis of the deposited data

Results flagged for a closer look

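In 7 of 129 groups of values checked, the highest or lowest library stood far from the others of its group by Dixon's ratio, and chance gives about 1 in 20, or 6.45. PSMA5 was at 485 TMM-scaled CPM in MII replicate 3, where the others of the group were at 556 to 576. PSMA7 was at 91.0 TMM-scaled CPM in MII replicate 5, where the others of the group were at 49.9 to 57.7. PSMB1 was at 587 TMM-scaled CPM in MII replicate 5, where the others of the group were at 449 to 472. PSMB10 was at 8.09 TMM-scaled CPM in GV replicate 1, where the others of the group were at 3.33 to 4.11. PSMD6 was at 80.0 TMM-scaled CPM in damaged replicate 5, where the others of the group were at 94.2 to 99.7. PSME1 was at 13.4 TMM-scaled CPM in GV replicate 1, where the others of the group were at 8.13 to 8.67. PSMC3IP was at 69.6 TMM-scaled CPM in GV replicate 5, where the others of the group were at 49.5 to 52.5. GV replicate 1 was set apart in PSMB10 and PSME1, both higher there, and MII replicate 5 in PSMA7 and PSMB1. Each of these 7 genes other than PSMD6 rose or fell between MIX and GV, and PSMD6 was not called. Without any 1 library, no call of a proteasome gene between MIX and GV at an FDR under 0.01 was lost. The causes were not tested.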

How the results depend on the processing

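Between MIX and GV, the 18 genes that rose and 16 that fell became 12 and 24 with library sizes. This is a change of 1.5 times in opposite directions, and no setting run changed the counts by more. The DEG counts changed with the scaling and the filter. With library sizes, DEGs that rose were 0 in each comparison with GV, DEGs that fell were 13, 13 and 12 in MIX, MII and damaged against GV, and 11 genes rose in MII against GV. With a filter of 10 CPM, which tested 7464 genes, 1 DEG rose in each of the 3 comparisons. Leaving out 1 library gave 18 to 20 genes that rose and 16 to 17 that fell, 4 to 5 and 7 to 9 DEGs, and 20 to 28 called transcripts against 24. Library sizes ended the calls of PSMB1, PSMC6, PSMD2, PSMD11 and PSMG3 and turned PSMA4 to -0.074, PSMD3 to -0.82, PSMD12 to -0.59, PSMD9 to -0.64 and PSMD10 to -0.42 on the log2 scale, and PSMA3, PSMC2, PSMC4, PSMD3, PSMD6, PSMD9, PSMD12 and PSMD14 were then called as lower. The filter of 10 CPM turned PSMD3 to -0.25, PSMD12 to -0.017 and PSMD9 to -0.064. All 5 GV libraries turned PSMA3 to 0.14, PSMD3 to -0.087 and PSMD9 to -0.053, library weights turned PSMD3 to -0.0099, and leaving out 1 library gave -0.28 to 0.14 for PSMA3 and -0.13 to 0.34 for PSMD3. The 8 libraries named alike in both tables hold only replicates 4 and 5 of GV, so names and a smaller GV group change together. They gave 18 genes that rose, 14 that fell, 5 DEGs that rose and 7 that fell. They ended the calls of PSMB4 and PSMC3, and turned PSMA3 to 0.28, PSMC2 to 0.094 and PSMD3 to -0.22. Of these turned genes, PSMA4 alone was called with TMM. Library sizes lower the fold change of all genes by construction, with the median moved by -0.89, and the cause of the other turns was not tested. DESeq2, edgeR's quasi-likelihood test and the remaining settings turned no direction.

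Same-numbered libraries deviated together with correlations of -0.11 to 0.36, over 0.1 in 5 of 13 pairs, and 8 of 14 libraries correlated best with their own number, a hint from the data. The study took oocytes of each group in each collection, but the labels do not say that a number marks a collection, so the numbers were not taken to pair the libraries. With a replicate block, 18 genes rose, 16 fell, 4 DEGs rose, 8 fell, and 25 transcripts were called. Between MII and damaged, every setting gave 0 calls. The share of PSMA8 moved by less than 1 SD in each setting chosen after seeing the data. Depth limits PSMB8, PSMB9, PSMB10 and PSME2, which had few counts in MIX libraries.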
